A study of Mus musculus with 4 samples.

Results

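The glycolysis and lactate pathway was followed from glucose uptake to lactate export through 33 gene symbols, picked by name. They correspond to 34 of the 22266 entries in the expression table, because Aldoa has a second entry. The pathway was picked with the fold changes of these same 4 libraries already known, so its values are a description and the p-values given with them support nothing about it. The OHT group (n = 2, genotype labelled Knockout) consists of mouse embryonic stem cells that received 1.0 µM 4-hydroxytamoxifen (4-OHT) for 48 hours to delete Cbx2, and is labelled day 2. The EtOH group (n = 2, genotype labelled Wildtype) consists of cells of the same line given ethanol, and is labelled day 0. Both groups derive from the female line PGK12.1, carry the CBX2fl/fl-HaloTag alleles (floxed and tagged) and were grown on gelatin with serum and leukemia inhibitory factor. The labels name no recombinase and no clone number, do not say that replicates were separate cultures, and place all 4 libraries in batch 2. No library combines 4-OHT with an intact gene, so drug, time and deletion cannot be told apart.

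Glycolysis splits glucose into pyruvate in the cytosol and yields ATP and NADH without oxygen. Lactate dehydrogenase then turns pyruvate into lactate, which regenerates NAD+, and monocarboxylate transporters carry the lactate out with a proton. Pluripotent stem cells are known for a high glycolytic flux, and many of the enzymes exist as isoforms that differ between tissues. Pyruvate dehydrogenase kinases act at the branch point, where they hold pyruvate back from the mitochondria.

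Values are TPM, a share of transcripts corrected for length, so levels can be compared between genes, but the depth behind each value is unknown. Cbx2, the Polycomb subunit to be deleted, was at 0.749 and 1.14 TPM in the OHT libraries and at 2.29 and 2.71 TPM in the EtOH libraries, in the direction of the labels. These levels are low, and by limma its adjusted p was 0.265, not past the threshold of 0.05 (log2 fold change -0.85, SE 0.19). All 12 embryonic stem cell markers were above the level set for testing, with summed levels of 12890 and 11688 TPM in OHT against 10039 and 9963 TPM in EtOH. Dppa5a alone gave 7089 and 5623 TPM of that sum in OHT and 4733 and 4612 TPM in EtOH. Of the 12 markers, 7 had OHT above with no overlap (23.1% of all genes). OHT was below with no overlap for 2, Utf1 and Sall4 (19.4% of all genes). Fibroblast and feeder markers summed to 39.2 and 48.5 TPM in OHT against 32.0 and 30.9 TPM in EtOH; the collagen genes Col1a1, Col1a2 and Col3a1 and the proteoglycan gene Dcn were under 1 TPM in every library, and 2 of the 15, Fap and Postn, were listed at 0 in all 4. Of the 15, 4 were tested and 3 of those were higher at an unadjusted p under 0.05 by limma, where 6.02% of all genes were. Fbln1, the largest part of the sum, was at 22.1 and 25.7 TPM in OHT and at 16.9 and 18.9 TPM in EtOH. Thy1 was at 7.64 and 10.9 TPM in OHT and at 6.41 and 5.43 TPM in EtOH. Fbln2 was at 3.95 and 4.33 TPM in OHT and at 2.64 and 2.56 TPM in EtOH. The other gene tested, Tagln, overlapped between groups. Muscle markers summed to 11.1 TPM or less and red blood cell markers to 5.83 TPM or less in any library. The part of these cells in the results was not tested. The OHT libraries stand apart from each other: 76.1% of the genes tested were higher in OHT replicate 2 than in replicate 1, and across 12016 genes the log2 difference of replicate 1 minus replicate 2 followed log2 transcript length (Pearson r = -0.56 in OHT and -0.28 in EtOH). These genes come from the same libraries and are not independent replicates.

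Most of the pathway was higher in the OHT libraries. The summed level of the 34 entries was 17747 and 18907 TPM in OHT and 15116 and 15208 TPM in EtOH, or 1.83% ± 0.0820 of all TPM in OHT and 1.52% ± 0.00647 in EtOH (SD, n = 2 each). The largest differences in log2 fold change belonged to the lactate exporter gene Slc16a3 (0.96, SE 0.12), the triosephosphate isomerase gene Tpi1 (0.88, SE 0.08), the phosphoglucomutase gene Pgm1 (0.75, SE 0.16), the phosphofructokinase gene Pfkl (0.61, SE 0.12) and the aldolase gene Aldoa (0.59, SE 0.08). The lactate dehydrogenase genes had opposite signs, with Ldha at 0.46 (SE 0.08) and Ldhb at -0.20 (SE 0.09).

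Here a log2 fold change is the OHT mean minus the EtOH mean of log2(TPM + 1), which understates the change of genes at low levels, and its standard error is limma's moderated one. The 33 entries with a mean of at least 1 TPM were tested with 12029 genes in all; Pklr, at a mean of 0.901 TPM, was not. By limma with Benjamini-Hochberg adjustment over all genes, 0 of the 33 had an adjusted p under 0.05, against 0.0416% of all genes tested (0.00831% higher and 0.0333% lower). The adjusted p was 0.0615 for Tpi1 and 0.0995 for Slc16a3, the 2 members higher at an adjusted p under 0.1 (0.133% of all genes). At an unadjusted p under 0.05, 12 were higher, where 6.02% of all genes were, and 0 were lower, where 4.46% were. Both groups were free of overlap with OHT above for 21 of the 33 (23.1% of all genes) and with OHT below for 3 (19.4% of all genes), namely Ldhb, Pdk3 and Slc16a1. The fold change was above 0 for 28 members (54% of all genes), at 0.5 or more for 5 (4.56%) and at -0.5 or less for 0 (2.26%). The median log2 fold change was 0.28 for the 33 and 0.02 for all genes tested. Among the 13 members at a mean of 100 TPM or more it was 0.29, beside -0.05 for the 1539 genes at that level. With 2 libraries a group, an exact two-sided permutation test of a single value cannot give a p under 0.333, so none was run. Because these same values chose the pathway, nothing is read from its counts. In bulk RNA, fewer cells expressing a gene and less RNA per cell cannot be told apart.

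**Figure D1:**
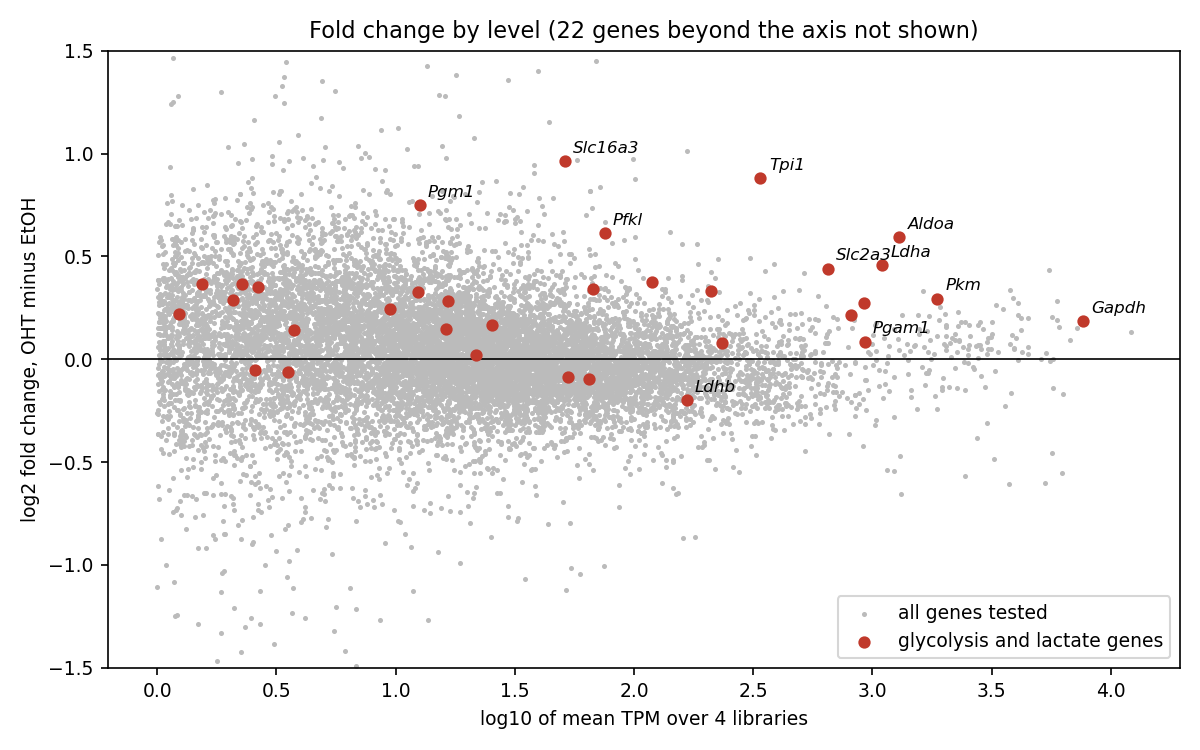
Log2 fold change (OHT minus EtOH, vertical) against log10 of mean TPM over the 4 libraries (horizontal), with grey points for all 12029 genes tested and red points for the 33 pathway entries tested. Slc16a3 and Tpi1 lie highest among the red points, at 0.96 and 0.88, and Ldhb lowest, at -0.20; 22 genes past 1.5 in either direction are not drawn.

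The sequences before a RefSeq start of transcription are shown for the 3 members of largest fold change, for the member with the most matches of a hypoxia response core, and for Ldhb, the lowest. Each run is the 250 bases before the RefSeq start in GRCm38.p6, 5′ to 3′ on the strand of the gene. Capitals mark ACGTG or GCGTG, the core that hypoxia-inducible factors bind, on either strand. The windows lie at chr11:120948817-120949066 (plus strand) for Slc16a3, chr6:124814159-124814408 (minus) for Tpi1, chr4:99929201-99929450 (plus) for Pgm1, chr7:46845554-46845803 (plus) for Ldha, which has a further start downstream, and chr6:142507958-142508207 (minus) for Ldhb. RefSeq and GENCODE differ in their starts: by the GENCODE M21 gene bounds given with each gene, the Slc16a3 and Ldha runs lie wholly inside the gene, the Tpi1 and Pgm1 runs lie partly inside it, and the Ldhb run ends at its edge.
Slc16a3: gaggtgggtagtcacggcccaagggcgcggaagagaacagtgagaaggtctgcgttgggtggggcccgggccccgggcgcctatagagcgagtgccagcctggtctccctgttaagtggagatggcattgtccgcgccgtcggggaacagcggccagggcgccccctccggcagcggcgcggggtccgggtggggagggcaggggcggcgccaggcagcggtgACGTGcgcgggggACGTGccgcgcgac
Tpi1: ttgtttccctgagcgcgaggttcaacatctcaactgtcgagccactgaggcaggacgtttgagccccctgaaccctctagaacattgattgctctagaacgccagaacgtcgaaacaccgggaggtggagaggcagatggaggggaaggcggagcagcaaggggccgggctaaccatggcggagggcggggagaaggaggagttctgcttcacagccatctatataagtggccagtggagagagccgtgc
Pgm1: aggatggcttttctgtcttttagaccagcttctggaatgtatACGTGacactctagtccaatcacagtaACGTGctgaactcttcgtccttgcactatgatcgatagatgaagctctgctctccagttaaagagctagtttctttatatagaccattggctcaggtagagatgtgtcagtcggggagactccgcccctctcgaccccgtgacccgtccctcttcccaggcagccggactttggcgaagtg
Ldha: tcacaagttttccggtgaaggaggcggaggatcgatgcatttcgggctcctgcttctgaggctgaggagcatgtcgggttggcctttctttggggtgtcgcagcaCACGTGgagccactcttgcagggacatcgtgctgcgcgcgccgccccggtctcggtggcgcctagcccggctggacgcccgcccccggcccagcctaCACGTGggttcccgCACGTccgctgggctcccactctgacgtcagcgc
Ldhb: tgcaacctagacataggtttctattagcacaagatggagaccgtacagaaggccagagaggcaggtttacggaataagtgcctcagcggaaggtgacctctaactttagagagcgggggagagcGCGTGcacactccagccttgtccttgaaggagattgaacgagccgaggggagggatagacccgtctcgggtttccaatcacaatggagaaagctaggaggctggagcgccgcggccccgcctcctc

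The Slc16a3 run holds 2 cores close to the start, the Pgm1 run holds 2 farther upstream, the Ldhb run holds 1 and the Tpi1 run holds 0. The Ldha run holds 5 matches, of which 4 come from 2 copies of the E-box CACGTG, each read as a core on both strands. RefSeq windows of 300 bases (250 before the start and 50 after) were matched for 32 of the 33 symbols, all but Slc2a3, and gave 52 windows. Of these, 71.2% held the core on either strand, against 62.5% of the windows of genes tested and 43.8% of all 32851 windows. CACGTG was in 11.5%, against 10.2% and 7.15%, and TGATGNAA, a motif of ATF4 with N for any base, was in 0 of 52, against 2.10% and 3.97%. The core contains CG, and the median window held 15 CG dinucleotides in the members, 20 in the genes tested and 7 in all windows. A match of letters is not a binding site, and binding was not measured in these libraries.

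Glucose uptake was led by Slc2a3, which encodes the high-affinity transporter GLUT3. It was at 632 and 877 TPM in OHT and at 529.9 and 567 TPM in EtOH, with OHT replicate 2 far above the other libraries (log2 fold change 0.44, SE 0.16). Without that library the fold change was 0.21, and without OHT replicate 1 it was 0.68. Slc2a1, which encodes the widespread transporter GLUT1, lay between 233.6 and 236.5 TPM in OHT and between 186 and 187 TPM in EtOH (0.33, SE 0.09), so its pairs were tight and did not overlap. GLUT3 transcripts made up 73.0% and 78.8% of the pair in OHT and 73.9% and 75.3% in EtOH, and these shares overlapped.

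Hk2, the inducible hexokinase that traps glucose as glucose 6-phosphate, was at 64.7 and 86.2 TPM in OHT and at 56.8 and 60.6 TPM in EtOH (0.34, SE 0.16). Its fold change was 0.14 without OHT replicate 2 and 0.55 without OHT replicate 1, and it was 0.23 once the length and GC trend of each library had been removed. Hk1, the constitutive isoform, lay at 11.9 to 16.2 TPM in OHT and at 10.2 to 11.5 TPM in EtOH (0.33, SE 0.20), and its fold change was 0.12 without OHT replicate 2 and 0.54 without OHT replicate 1. Their ratio overlapped between groups: Hk2 was 5.46 and 5.32 times Hk1 in OHT and 5.56 and 5.27 times in EtOH.

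The 2 genes named for phosphoglucomutase, the activity that links glucose 6-phosphate to glucose 1-phosphate and so to glycogen, differed unequally. How much of that activity each enzyme supplies was not measured. Pgm1 (chromosome 4, 99929414 to 99987294, plus strand) was at 15.1 and 17.1 TPM in OHT and at 9.10 and 9.19 TPM in EtOH, with no overlap. Pgm2 (chromosome 5, 64092950 to 64128351) was at 23.6 and 30.4 TPM in OHT and at 22.9 and 24.6 TPM in EtOH, with overlapping groups (0.17, SE 0.17). Pgm1 therefore made up 38.9% and 36.0% of the pair in OHT and 28.4% and 27.2% in EtOH. Older annotations swap these 2 symbols, and the values follow the gene identifiers ENSMUSG00000025791 for Pgm1 and ENSMUSG00000029171 for Pgm2.

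Gpi1, the isomerase that makes fructose 6-phosphate, was at 230.4 and 249.9 TPM in OHT and at 231 and 222.5 TPM in EtOH, and the groups overlapped (0.08, SE 0.09). The next enzyme, phosphofructokinase, commits sugar to glycolysis, and all 3 of its genes had both OHT libraries above both EtOH libraries, as did 23.1% of all genes. Pfkl (liver type; chromosome 10, 77986947 to 78010083, minus strand) was at 85.6 and 97.2 TPM in OHT against 60.4 and 58.1 TPM in EtOH. Pfkp (platelet type), the most abundant, was at 118 and 153 TPM in OHT against 102 and 104 TPM in EtOH (0.37, SE 0.14). Its fold change was 0.19 without OHT replicate 2. Pfkm (muscle type) had the lowest level, 9.72 to 10.97 TPM in OHT and 8.42 to 8.70 TPM in EtOH (0.25, SE 0.17). The share of Pfkl among the 3 was 40.2% and 37.3% in OHT and 35.3% and 34.0% in EtOH.

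The PFKFB genes encode the bifunctional enzymes that set the level of the main allosteric activator of phosphofructokinase. They were far less abundant than their target, with summed levels of 27.9 and 34.1 TPM in OHT and 28.1 and 31.4 TPM in EtOH, and none of the 4 separated the groups. Pfkfb1, first known from liver and muscle, was at 21.5 and 22.5 TPM in OHT and at 21.1 and 22.3 TPM in EtOH (0.02, SE 0.14). Pfkfb2, best known from heart, had a fold change of 0.14 (SE 0.37), from -0.40 without OHT replicate 2 to 0.69 without OHT replicate 1. Pfkfb3, the inducible form with high kinase activity, was at -0.06 (SE 0.20), and Pfkfb4 was at 0.22 (SE 0.21). The levels of these last 3 ran from 1.04 to 5.99 TPM in OHT and from 0.903 to 4.05 TPM in EtOH.

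**Figure D2:**
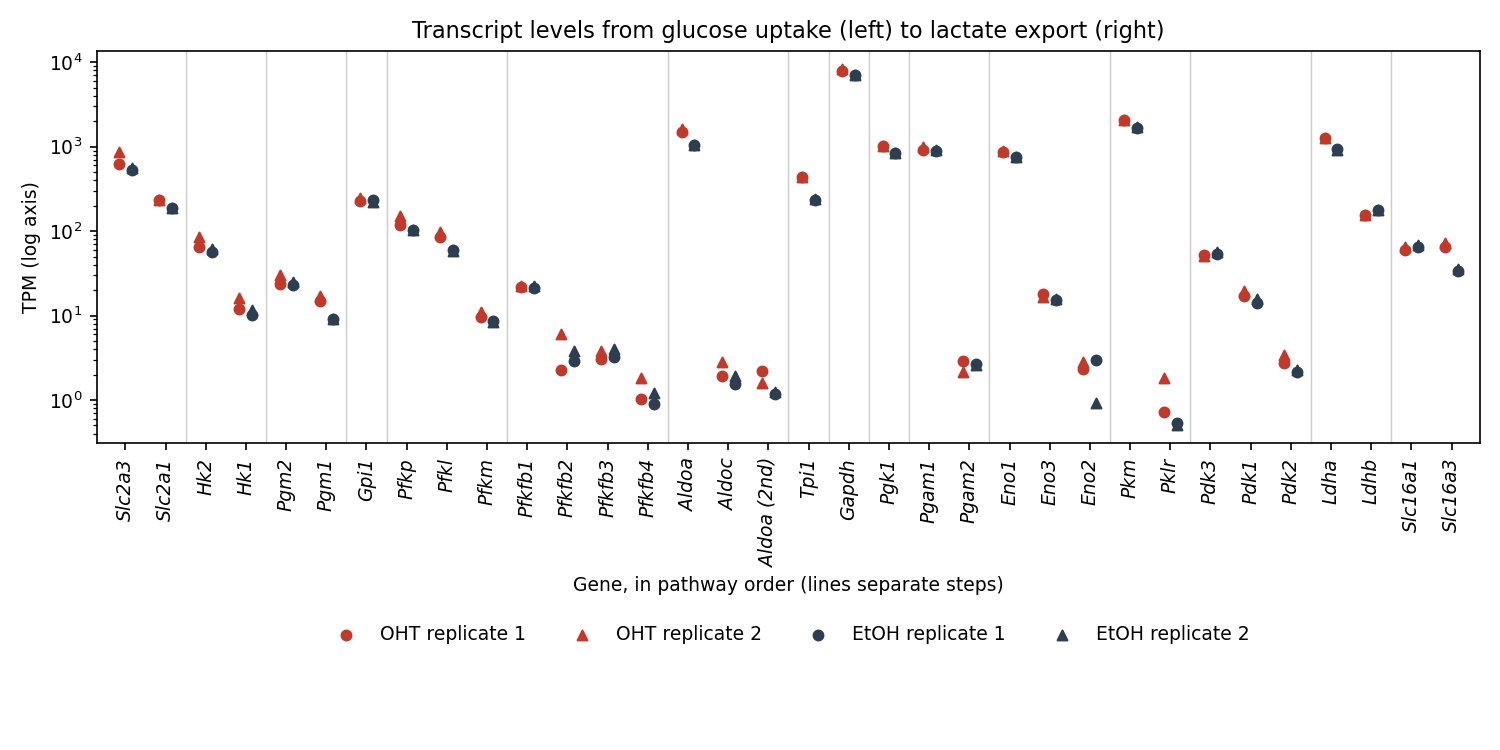
TPM of each of the 34 entries (vertical, log axis) in pathway order from glucose uptake to lactate export (horizontal), with red points for OHT, dark points for EtOH, circles for replicate 1 and triangles for replicate 2. Gapdh is the most abundant entry in every library, at 7849.6 TPM or more in OHT and 7147 TPM or more in EtOH, and most steps have a single dominant gene.

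Aldolase splits the 6-carbon sugar into the triose phosphates, and Aldoa supplied nearly all of its transcripts. Aldoa (chromosome 7, 126795234 to 126800751, minus strand) was at 1511 and 1614 TPM in OHT and at 1035.1 and 1035.0 TPM in EtOH. Both OHT libraries thus lay far above an EtOH pair that differed by less than 1 TPM. The second entry named Aldoa, a protein-coding gene just upstream on the same strand (126800790 to 126809108), was at 2.18 and 1.57 TPM in OHT and at 1.19 and 1.25 TPM in EtOH (0.37, SE 0.18). Aldoc, the brain isoform, lay between 1.93 and 2.85 TPM in OHT and between 1.56 and 1.95 TPM in EtOH (0.29, SE 0.21), and its groups overlapped.

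Tpi1, which interconverts the triose phosphates, was at 442 and 439 TPM in OHT and at 235 and 242 TPM in EtOH, a ratio of group means of 1.85. The groups lay far apart, and the fold change ran from 0.84 to 0.94 over the 15 alternatives tried. Tpi1 (chromosome 6, 124810586 to 124814296, minus strand) lies 40.9 kb from Eno2 and 347 kb from Gapdh, and all 3 are on the same strand. Gapdh had a fold change of 0.18 (95% interval -0.02 to 0.38), below that of Tpi1 under every alternative. For Eno2 the interval, -0.50 to 1.23, holds the value of Tpi1, and its fold change was 0.90 without EtOH replicate 1 and -0.17 without EtOH replicate 2. Genes outside the pathway that lie near these 3 were not compared, and an effect of their position was not tested. With Hk2, Slc2a3 and Ldhb, chromosome 6 carries 6 of the 33 members.

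Gapdh, the dehydrogenase that makes NADH, was at 7849.6 and 8411 TPM in OHT and at 7157 and 7147 TPM in EtOH. The groups did not overlap. The fold change was 0.18 (SE 0.08); with quantile normalization the fold change was 0.07. Gapdh alone made up 44.2% and 44.5% of the summed level of the pathway in OHT and 47.3% and 47.0% in EtOH. Gapdh has many processed copies in the genome, and its reads can be assigned to them. At 95% identity or more over at least 50% of the copy, 90 annotated copies had no entry in the table and 2 had one, Gm3839 and Gm10358. Gm3839 was at 1.98 and 1.90 TPM in OHT and at 14.2 and 13.3 TPM in EtOH, and it was 1 of the 5 genes past the threshold (-2.33 on the log2 scale, SE 0.17, adjusted p = 0.0265 by limma). Gm10358 was at 2.14 and 1.52 TPM in OHT and at 0.993 and 1.57 TPM in EtOH, with overlapping groups (0.31, SE 0.21). The copies together were at 4.13 and 3.43 TPM in OHT and at 15.2 and 14.9 TPM in EtOH. They were at most 0.212% of the sum with Gapdh in any library, and with them added the log2 ratio of means was still 0.18. By the same rule, other members also had annotated copies with no entry: 4 for Pgk1, 3 for Eno1, 2 for Ldha, and 1 each for Gpi1, Ldhb, Pgam1, Pkm and Tpi1. The levels of copies with no entry are unknown.

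Pgk1, the first enzyme of the pathway to yield ATP, is X-linked, as are Pfkfb1 and Pdk3. It was at 1012 and 1017 TPM in OHT and at 836 and 841 TPM in EtOH (0.27, SE 0.08), so the pairs were narrow and apart. Pgam1, the mutase of the next step, was at 916 and 997 TPM in OHT and at 896 and 903 TPM in EtOH (0.09, SE 0.09); its OHT libraries were above, by less than the distance between them. Pgam2, the muscle form, lay between 2.16 and 2.87 TPM in OHT and between 2.60 and 2.65 TPM in EtOH (-0.05, SE 0.19).

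Eno1, the widespread enolase, was at 869.7 and 879 TPM in OHT and at 754 and 751 TPM in EtOH (0.22, SE 0.08). It shares 99.5% identity with Eno1b, an intronless copy on chromosome 18 that was listed at 1986 and 2195 TPM in OHT and at 1745 and 1759 TPM in EtOH. The copy thus took 69.5% and 71.4% of their summed level in OHT and 69.8% and 70.1% in EtOH. How the reads divide between the 2 genes is uncertain, while their sum was 2856 and 3074 TPM in OHT and 2499 and 2509 TPM in EtOH, a log2 ratio of means of 0.24. Counted with Eno1b, enolase would be the second most abundant step, after Gapdh and ahead of pyruvate kinase. Eno3, the muscle enolase, lay between 16.6 and 17.8 TPM in OHT and between 15.1 and 15.7 TPM in EtOH (0.15, SE 0.15). Eno2, the neuronal enolase, was at 2.32 and 2.83 TPM in OHT and at 3.01 and 0.910 TPM in EtOH, so its EtOH pair spanned the OHT pair.

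Pkm, the pyruvate kinase gene of most tissues outside liver, was at 2049 and 2067 TPM in OHT and at 1653 and 1703 TPM in EtOH (0.29, SE 0.08). The groups were apart by several times the distance between replicates. The table gives a single value per gene, so the PKM1 and PKM2 splice forms were not separated. Pklr, the liver and red cell gene, was at 0.729 and 1.84 TPM in OHT and at 0.531 and 0.499 TPM in EtOH, below the level set for testing.

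**Figure D3:**
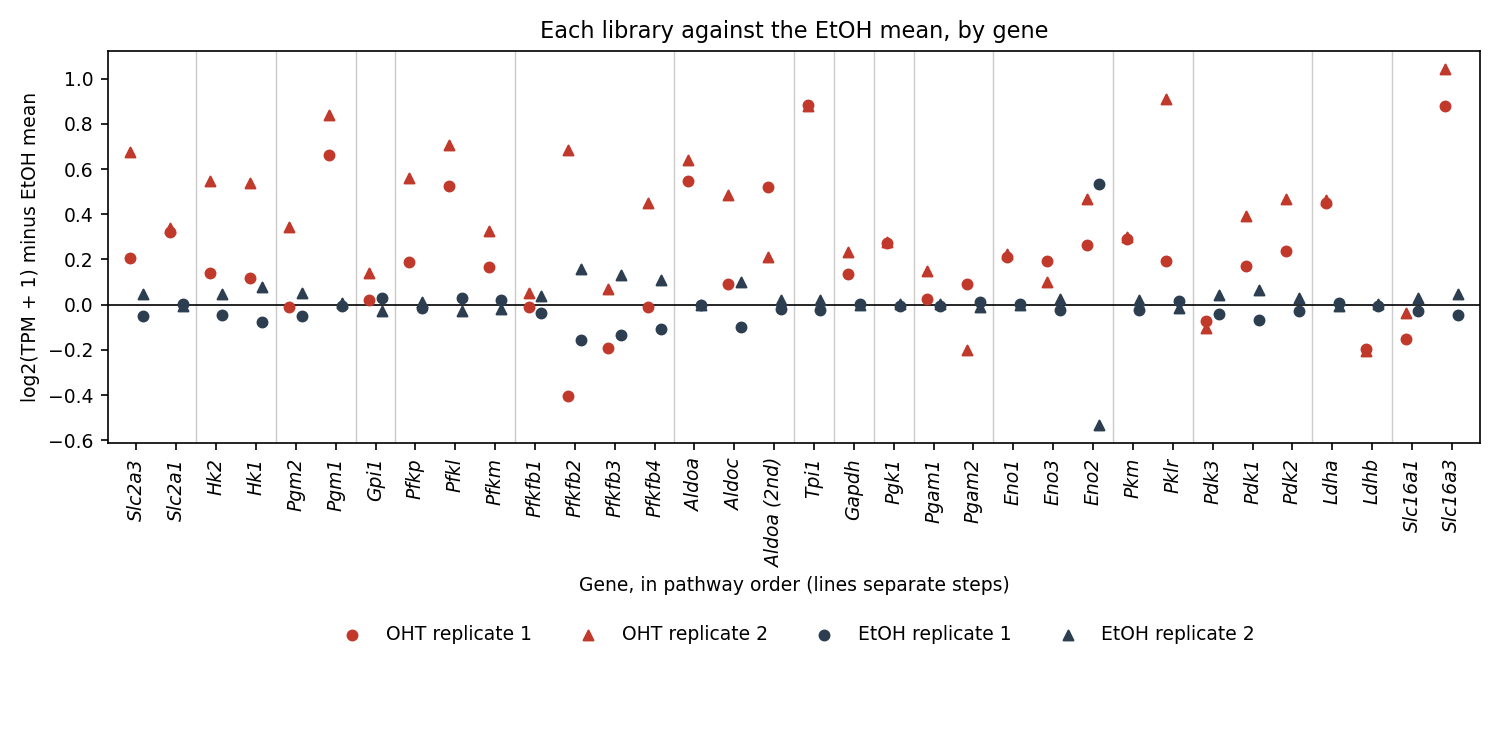
For each of the 34 entries in pathway order (horizontal), log2(TPM + 1) of each library minus the EtOH mean (vertical), with red points for OHT, dark points for EtOH, circles for replicate 1 and triangles for replicate 2. Both red points of Slc16a3, Tpi1, Pgm1, Pfkl, Aldoa and Ldha stand clear of the dark ones, both red points of Ldhb lie under them, and the triangle lies far above the circle for Slc2a3, Hk2, Hk1 and Pfkfb2, among others.

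At lactate dehydrogenase the 2 subunit genes lay on opposite sides. Ldha (chromosome 7, 46841475 to 46855627, plus strand), whose subunit is known for favouring lactate formation, was at 1268 and 1282 TPM in OHT and at 934 and 924 TPM in EtOH. Ldhb (chromosome 6, 142490249 to 142507957, minus strand), whose subunit predominates in heart, was at 155 and 154 TPM in OHT and at 177 and 178 TPM in EtOH; its values are given in full because of its partner, after they had been seen. Neither gene overlapped between groups, and replicates lay close together in both. The ratio of Ldha to Ldhb was 8.18 and 8.31 in OHT and 5.27 and 5.18 in EtOH, so Ldhb was 10.9% and 10.7% of the pair in OHT and 15.9% and 16.2% in EtOH. The sign of both fold changes was the same under each of the 15 alternatives.

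The monocarboxylate transporters differed in isoform balance as well. Slc16a3 (chromosome 11, 120948480 to 120960868, plus strand) encodes MCT4, the exporter typical of glycolytic cells, and was at 64.3 and 72.1 TPM in OHT and at 33.3 and 35.6 TPM in EtOH. Slc16a1, which encodes the widespread transporter MCT1, was at 60.1 and 65.2 TPM in OHT and at 65.5 and 68.3 TPM in EtOH (-0.09, SE 0.11), with OHT just below. Slc16a3 was 1.07 and 1.11 times Slc16a1 in OHT and 0.509 and 0.521 times in EtOH. Its share of the pair was 51.7% and 52.5% in OHT and 33.7% and 34.3% in EtOH, so the 2 genes stood in opposite order in the 2 groups.

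**Figure D4:**
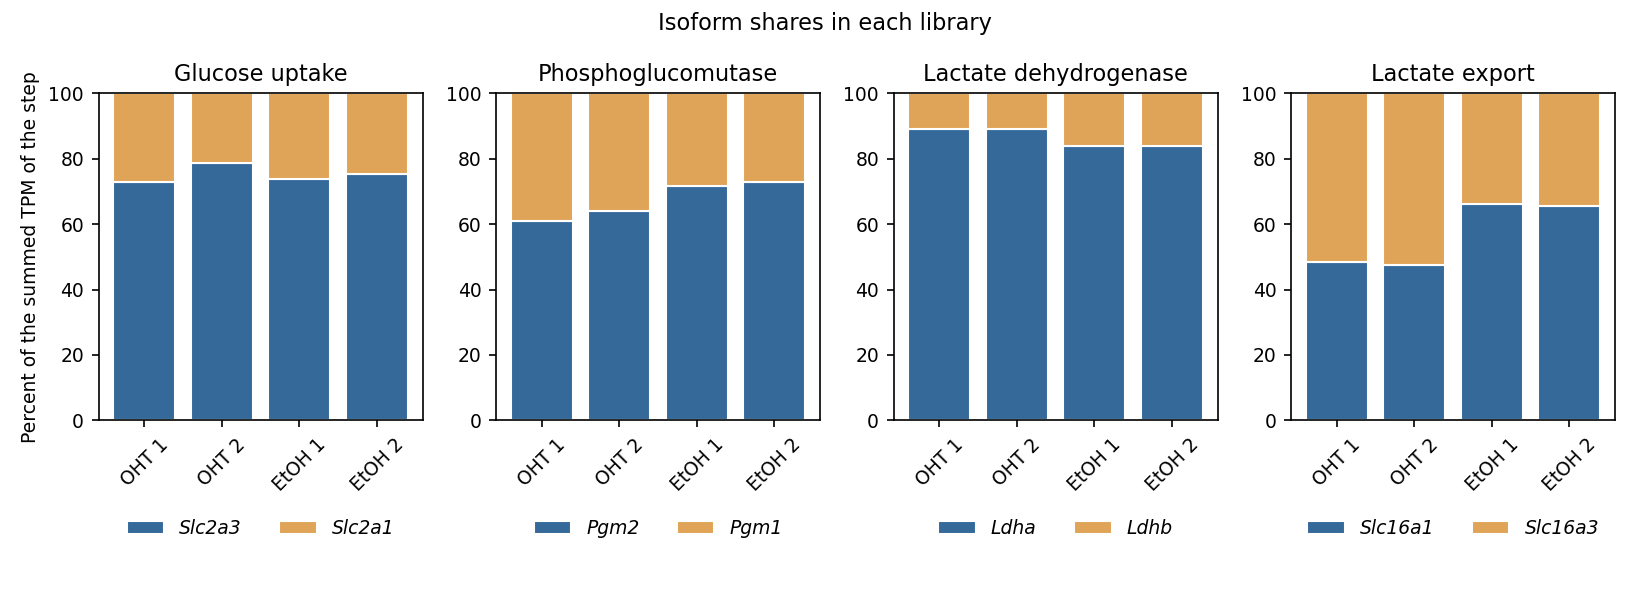
Share of each isoform in the summed TPM of its step (vertical, percent) in each library (horizontal, OHT left of EtOH) for glucose uptake, phosphoglucomutase, lactate dehydrogenase and lactate export. Slc16a3 takes 51.7% and 52.5% in OHT against 33.7% and 34.3% in EtOH, Ldhb takes 10.9% and 10.7% against 15.9% and 16.2%, and the Slc2a3 and Slc2a1 shares overlap between groups.

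The pyruvate dehydrogenase kinases differed in direction. Pdk3, the most abundant, was at 51.8 and 50.8 TPM in OHT and at 53.0 and 56.2 TPM in EtOH (-0.09, SE 0.11), with both OHT libraries just below. Pdk1, a kinase known to be induced by low oxygen, lay between 16.8 and 19.8 TPM in OHT and between 14.1 and 15.6 TPM in EtOH (0.28, SE 0.16). Pdk2 was at 2.78 and 3.44 TPM in OHT and at 2.14 and 2.27 TPM in EtOH (0.35, SE 0.18). Their sum, 71.5 and 74.0 TPM in OHT and 69.2 and 74.1 TPM in EtOH, overlapped between groups. Pdk3 was 72.6% and 68.6% of that sum in OHT and 76.5% and 75.9% in EtOH.

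By summed level of a step, counted without the enolase copy Eno1b, Gapdh came first and pyruvate kinase next in both groups. Aldolase followed at a mean of 1567 TPM in OHT, ahead of lactate dehydrogenase at 1429.5 TPM, while in EtOH lactate dehydrogenase, at 1107 TPM, was ahead of aldolase, at 1038 TPM. Ratios of the group means ran from 1.85 for Tpi1 and 1.51 for aldolase to 1.06 for Gpi1, 1.06 for phosphoglycerate mutase, 1.04 for the PFKFB genes and 1.02 for the pyruvate dehydrogenase kinases. The step sums, made of members picked with their fold changes known, did not overlap for 13 of the 16 steps, with OHT above in each (23.1% of single genes); Gpi1, the PFKFB genes and the pyruvate dehydrogenase kinases overlapped.

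The difference between the OHT libraries touched the members too. The median of the 33 against the EtOH mean was 0.17 in OHT replicate 1, where that of all genes was -0.09, and 0.34 in OHT replicate 2, where that of all genes was 0.14. When each library's trend with transcript length and GC content was removed, the medians of the members were 0.21 and 0.23. In that fit 6 members had a limma adjusted p under 0.05: Tpi1 (0.87, SE 0.05), Slc16a3 (0.84, SE 0.08), Pgm1 (0.75, SE 0.08), Aldoa (0.55, SE 0.06), Ldha (0.45, SE 0.05) and Pfkl (0.50, SE 0.07), with 121 genes higher (1.01% of all genes) and 99 lower in all. The correction is fitted to all genes and takes out any true difference that follows length or GC. Slc2a3, Hk2, Hk1 and Pfkp, whose fold changes differed most between the OHT libraries among members above 10 TPM, were not among the 6.

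**Figure D5:**
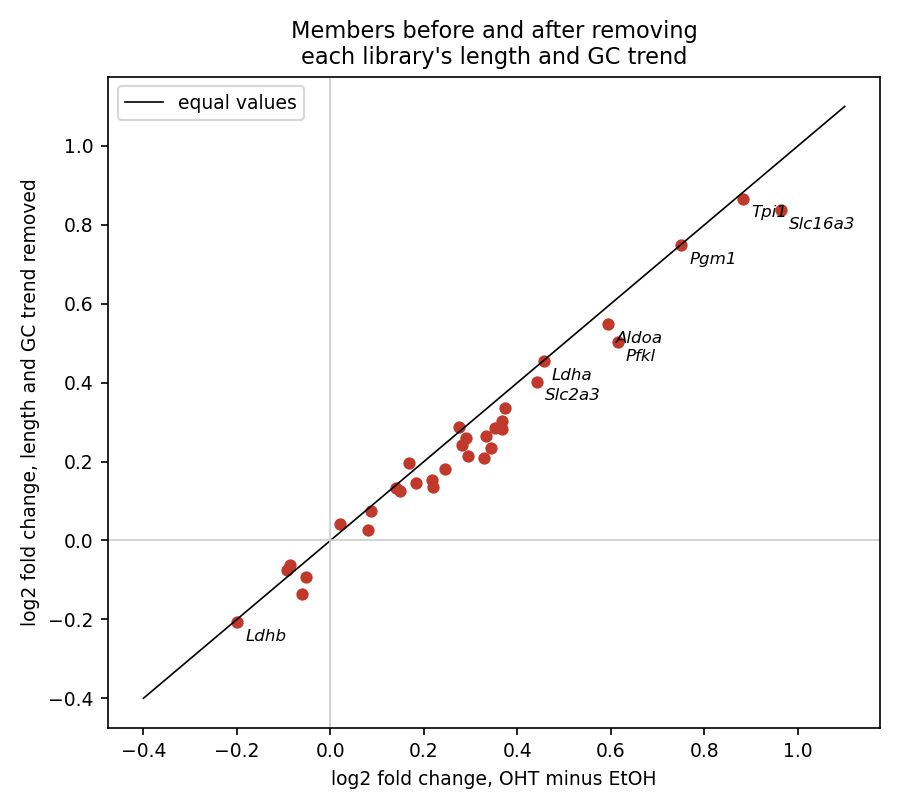
Log2 fold change of the 33 entries tested after each library's length and GC trend was removed (vertical) against the value before (horizontal), with the line of equal values. All points keep their sign, the median absolute shift is 0.04 and the largest is 0.13.

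Outside the members, 20 further genes for isoforms and companions of the pathway had been listed, and 6 were at a mean of 1 TPM or more. Of these 6, 0 had a limma adjusted p under 0.05, and at an unadjusted p under 0.05 1 was lower and 0 were higher. That gene was Emb, for embigin, a membrane partner of monocarboxylate transporters, at 48.7 and 60.4 TPM in OHT and at 72.9 and 77.3 TPM in EtOH (-0.46, SE 0.14). Bpgm, the bisphosphoglycerate mutase, was at 0.37 (SE 0.24), the testis lactate dehydrogenase gene Ldhc at 0.33 (SE 0.19) and the glucose transporter gene Slc2a8 at 0.32 (SE 0.17). Bsg, for basigin, the usual partner of MCT1 and MCT4, was named after its values were seen and was at 429.6 and 399 TPM in OHT and at 415 and 396 TPM in EtOH. The leukocyte hexokinase gene Hk3 and the sperm gene Gapdhs were under 1 TPM in every library, Pgk2 and Slc16a8 were listed at 0 in all 4, and these 4 genes were named after their values were seen.

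Pyruvate entry into the mitochondria, given by 10 genes, had 0 members past the threshold in either direction by limma, also at an unadjusted p under 0.05, and a median log2 fold change of -0.06. The mitochondrial pyruvate carrier gene Mpc1 was at 42.7 and 44.4 TPM in OHT and at 51.7 and 48.9 TPM in EtOH (-0.20, SE 0.12). The phosphatase gene Pdp1 was at -0.21 (SE 0.20), Pdp2 at 0.12 (SE 0.19) and Pdhx at -0.09 (SE 0.14). The groups did not overlap for 4 of the 10 genes, with OHT below in each, as in 19.4% of all genes tested.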

How the data were processed

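Poly(A) RNA of 4 libraries was sequenced from mouse embryonic stem cells (NEBNext Ultra II RNA kit, per the labels' protocols). The authors deposited TPM per gene, made with Trim Galore and Salmon on GRCm38 (mm10), per the submitters' processing notes. Strandedness, recombinase, software versions, annotation release and Salmon options were not given in the sources used here. Each column sums to 1000000 over 22266 genes, and 2 columns match no sample used here and were left out. TPM keeps no depth, so no counting interval was computed.

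TPM was taken as log2(TPM + 1), genes averaging 1 TPM or more were kept, and OHT and EtOH were compared with limma 3.58.1 (R 4.3.3; mean-variance trend, two-sided, threshold 0.05), with p-values adjusted over 12029 genes. Each gene has 2 residual degrees of freedom, and limma adds 4.01 prior ones estimated from all genes tested. The p-values thus reflect nothing but the variation among these libraries, in part that of other genes, and it could be technical. The fit was tested on simulated data with independent noise and no trend with length, so that test does not cover the trend seen in these libraries. Coordinates, lengths and GC content (longest protein-coding transcript) come from GENCODE M21, matched by identifier without version for 22213 genes; copies were sought with blastn 2.17.0. The length and GC trend was a loess surface (span 0.5) of each library's deviation from the gene mean. Promoters are from RefSeq (GRCm38.p6).

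All members are named. Library values are given for the most abundant member of each step and the 12 with the largest fold change, and from each further list up to 4 genes of largest fold change are named; 1 such gene is not reported here. Members, lists, tests and alternatives were chosen with earlier results of these data known.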

Additional observations from a re-analysis of the deposited data

How the results depend on the processing

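The count of genes past the threshold was 5 and was the most sensitive value. It was 0 with no filter on low values (1838 at an unadjusted p under 0.05), 3 under both median of ratios scaling and quantile normalization, and 220 once the trend with length and GC was taken out. Leaving out a library gave 34 to 2957, taking the lone library of its group to vary like the other pair: 2957 genes (18 members higher and 1 lower) without OHT replicate 1, 2478 (12 higher and 1 lower) without OHT replicate 2, and 46 or 34 (0 members) without EtOH replicate 1 or EtOH replicate 2. All genes leaned in opposite directions in the fits without an OHT library. The median log2 fold change of all genes tested was 0.14 without OHT replicate 1 and -0.09 without OHT replicate 2. That of the members was 0.34 and 0.17. The replicate block gave 474 of the 12029 genes, 261 higher and 213 lower, of which 7 were members, all higher. Joined to the trend removal, the block gave 953 genes, 457 higher and 496 lower, of which 9 were members, all higher. The numbers are not known to pair the libraries: replicate 1 minus 2 correlated at r = 0.29 across genes between OHT and EtOH, and every other call rests on the unpaired fit. The median of the members ran from 0.17 to 0.34 over all alternatives, the same range as without a library, and 0.28 without Gapdh and Tpi1. Their share of all TPM was 0.317 percentage points higher in OHT, or 0.219 without Gapdh and 0.274 under median of ratios scaling. That scaling was applied to the summed level of the members and not to the total. It gave 1.91% and 1.70% in OHT replicates 1 and 2, where the unscaled shares were 1.77% and 1.89%. In EtOH it gave 1.55% and 1.51%. Of the 33 members tested, 26 kept a single sign under every alternative; the 7 that did not were Eno2, Pgam2, Pgm2 and the 4 PFKFB genes. The cause was not tested. TPM gives no depth, so what depth limits is unknown.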

Other observations

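Side branches of glucose metabolism were looked at from lists that hold no member. In the gluconeogenic and bypass list (8 of 11 genes tested, 0 past limma's adjusted threshold, 1 higher and 0 lower at an unadjusted p under 0.05), Pck2, the mitochondrial phosphoenolpyruvate carboxykinase, was at 48.6 and 51.3 TPM in OHT and at 24.9 and 27.7 TPM in EtOH (log2 fold change 0.90, SE 0.13), a difference of the size of that of Tpi1. The muscle fructose-bisphosphatase gene Fbp2 was at 0.26 (SE 0.14), the pyruvate carboxylase gene Pcx at 0.20 (SE 0.18) and the glucose 6-phosphate transporter gene Slc37a4 at 0.18 (SE 0.19).

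In the glycogen list (12 of 20 tested, 0 past the adjusted threshold, 1 higher and 0 lower at an unadjusted p under 0.05), Gys1, the glycogen synthase of most tissues, was at 10.9 and 13.6 TPM in OHT and at 8.01 and 7.33 TPM in EtOH (0.61, SE 0.19), in the same direction as Pgm1. The phosphorylase kinase gene Phkg1 was at 0.19 (SE 0.28) and the branching enzyme gene Gbe1 at -0.18 (SE 0.20). The pentose phosphate list (12 of 14 tested, 0 past the adjusted threshold, 1 higher and 1 lower at an unadjusted p under 0.05) had a median of 0.03. Its largest values were -0.37 for Tktl1 (SE 0.18), 0.33 for H6pd (SE 0.22), -0.33 for Rpia (SE 0.15) and 0.32 for Shpk (SE 0.19). Its summed level was 1322 and 1328 TPM in OHT and 1316 and 1284 TPM in EtOH. The gene higher at that unadjusted p was Taldo1, at 310 and 301 TPM in OHT and at 258 and 247 TPM in EtOH (0.28, SE 0.09). The lower gene was Prps1, at 241 and 275 TPM in OHT and at 309 and 311 TPM in EtOH (-0.27, SE 0.10). Both were named after their values were seen.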
